A study of Mus musculus with 24 samples.

Results

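The proteasome genes were taken as every gene on the array whose symbol runs Psma to Psmg followed by a number, at probe sets annotated with exactly 1 symbol. The rule found 49 genes, covered by 103 probe sets, of 18193 genes with 1 symbol; each gene was read at its brightest probe set, the one with the highest mean over all 24 arrays. Of the 49, 47 genes passed the filter on dim probe sets and were tested among 12468 genes. Psma8, an alpha subunit known from the testis, and Psmb11, the beta subunit of thymic epithelium, did not pass. Psma8 lay between 1.37 and 34.8 intensity units in the amygdala and between 0.505 and 20.4 in the hippocampus, and Psmb11 between 1.13 and 18.1 in the amygdala and between 1.49 and 12.8 in the hippocampus. Both genes were left untested. Not every match is a subunit: Psmc3ip encodes a protein of meiotic recombination, and Psme3ip1 a protein that binds the activator Psme3. Psme2, the partner of Psme1 in one activator, shares its probe set with a second symbol and was not a member.

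The study measured total RNA of mouse brain on 24 single-colour Affymetrix arrays, from mice bred from C57BL/6J and A/J, both inbred strains, and selected on contextual fear conditioning, a task in which a mouse learns to freeze where it was shocked. The arrays fall into 4 groups of 6: high freezing amygdala, low freezing amygdala, high freezing hippocampus and low freezing hippocampus, all from that cross. No age, sex or time after training is given, and nothing states whether an array holds RNA of 1 mouse or of several, and p-values cover only how the arrays of a group vary, which may be technical. A piece of brain mixes cell types, so fewer cells of a type and less RNA per cell cannot be told apart. All differences below are on the log2(intensity + 16) scale, which understates the change of dim genes, and "adjusted p" is limma's moderated test with Benjamini-Hochberg adjustment over 27022 probe sets, at a threshold of 0.05. Intensities of different probe sets are not compared with each other.

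The proteasome degrades proteins tagged with ubiquitin. Its core particle stacks rings of alpha subunits, which gate the entrance, around rings of beta subunits, of which Psmb5, Psmb6 and Psmb7 carry the protease sites; Psmb8, Psmb9 and Psmb10 replace them in the immunoproteasome, a form induced by interferon and abundant in immune cells. The regulatory particle caps the core: the Psmc ATPases unfold the substrate, and most Psmd proteins form the scaffold, bind ubiquitin or cleave it off. Psme proteins are alternative caps, Psmf1 is an inhibitor in vitro, and Psmg proteins are chaperones that assemble the core. In neurons, protein degradation by the proteasome takes part in synaptic change and in the storage of fear memories.

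Labelled regions were set against their markers. Central amygdala and striatum markers were higher in the amygdala for 4 of 4 genes, and hippocampus markers lower for 3 of 4, while 2 of 3 basolateral amygdala markers were lower in the arrays labelled amygdala. The amygdala arrays also had more signal of oligodendrocytes and microglia: 6 of 6 oligodendrocyte markers were higher, with a summed intensity of 33977 to 47291 in the amygdala and 13533 to 18457 in the hippocampus. Of 12 microglia markers, 9 were higher (summed 5250 to 7362 in the amygdala and 4108 to 4804 in the hippocampus). Of 8 general neuron markers 4 were lower and 2 higher (summed 23013 to 26947 in the amygdala and 25446 to 31755 in the hippocampus). Of 4 excitatory neuron markers 3 were lower and 1 higher (summed 1863 to 2693 in the amygdala and 5620 to 7020 in the hippocampus). All 3 inhibitory neuron markers were higher (summed 7362 to 8639 in the amygdala and 3439 to 4011 in the hippocampus). Astrocyte markers went both ways, with 5 of 7 higher and 2 lower (summed 12668 to 15433 in the amygdala and 12242 to 14764 in the hippocampus, which overlap). All 4 choroid plexus markers were higher in the amygdala. The part of these cell mixtures in the differences below was not tested. The median intensity of an array was 42.6 ± 0.781 for high freezing amygdala and 40.9 ± 1.38 for low freezing amygdala, and 39.8 ± 1.65 for high freezing hippocampus and 37.7 ± 0.749 for low freezing hippocampus (SD, n = 6 each). Within groups the arrays correlated at 0.969 to 0.983.

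Between the regions, proteasome genes differed little in size and in both directions. In the comparison of amygdala with hippocampus, 12 arrays each, 16 of 47 tested genes passed the threshold, which is 34.0%, beside 56.3% of all genes tested. Of these, 10 were lower in the amygdala (24.6% of all genes were) and 6 higher (31.7% of all genes). The median difference was -0.025 over the proteasome genes and 0.036 over all genes. No proteasome gene passed with a difference of at least 1.5-fold, against 16.4% of all genes, and none had arrays of the regions that did not overlap, against 17.1% of all genes. The 95% interval of all 47 genes stayed within 1.5-fold either way on the log2(intensity + 16) scale, which understates the change of dim genes. Array scaling moves the split, with 17 lower and 4 higher after centring arrays on their medians, and 9 in each direction after quantile normalization. The genes with the 6 highest and the 6 lowest differences among those called are described in full, together with the pairs of catalytic subunits. Psma4, Psmc3, Psmd2 and Psmd13 complete the 16 and were named after their values were seen.

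**Figure D1:**
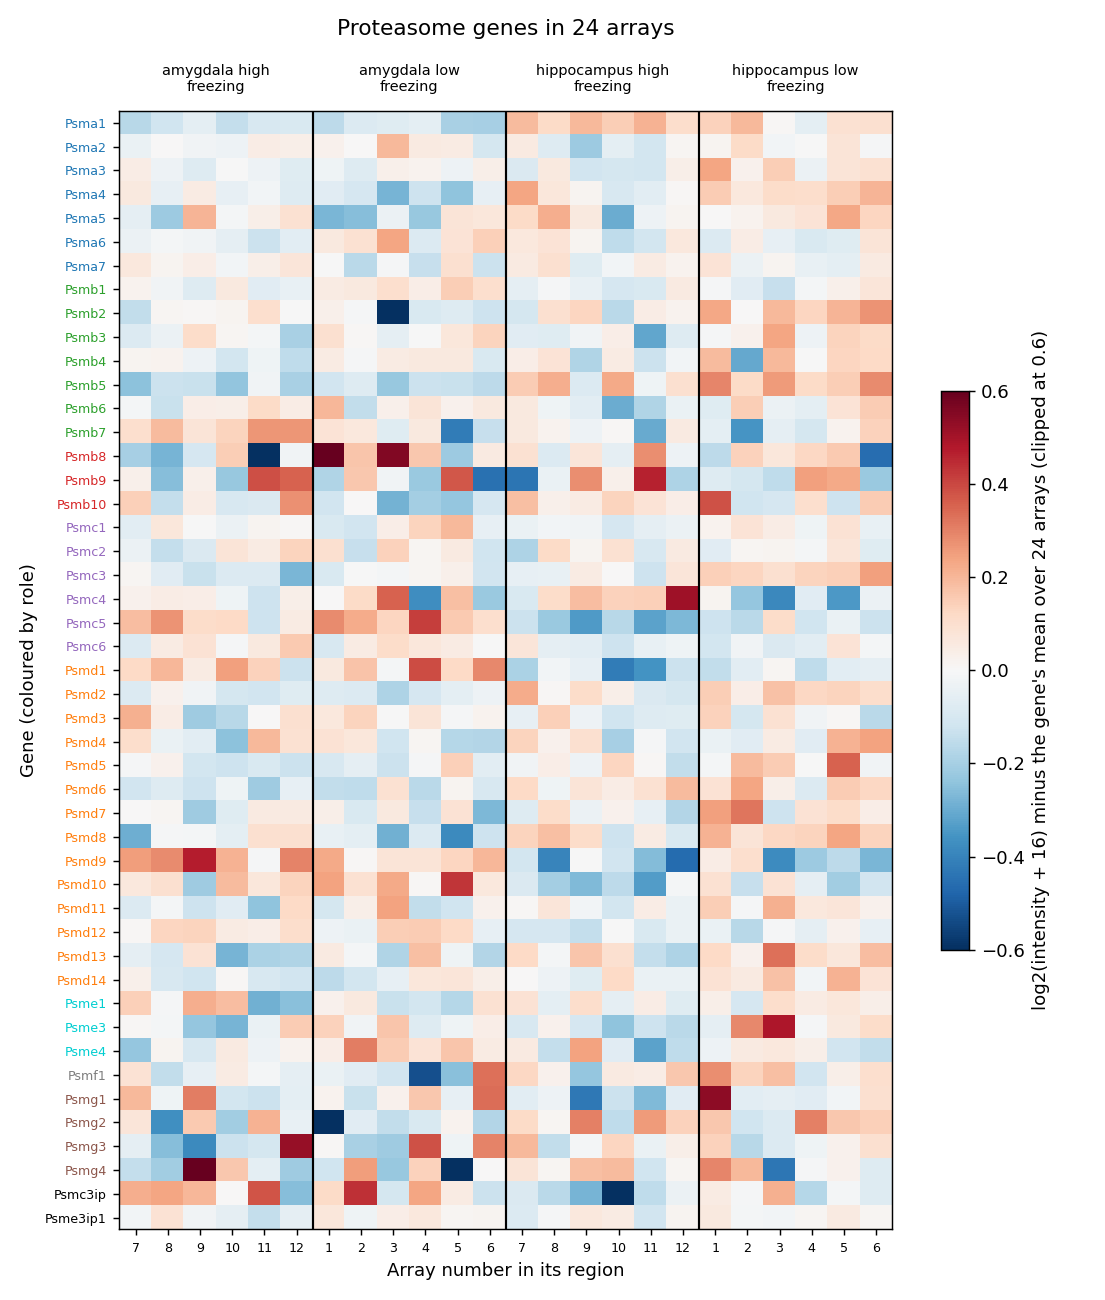
Each row is a proteasome gene, coloured by its role, and each column an array, in the order high freezing amygdala, low freezing amygdala, high freezing hippocampus, low freezing hippocampus. Colour gives log2(intensity + 16) minus the gene's mean over 24 arrays; rows such as Psma1 and Psmb5 are blue in the amygdala and red in the hippocampus, Psmc5 and Psmd9 the reverse, and most rows show no block.

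In the core particle the called genes were lower in the amygdala. Psmb5, the beta subunit with chymotrypsin-like activity, had 1068, 1156 and 1249 intensity units as the lowest, median and highest amygdala arrays, and 1197, 1408 and 1557 in the hippocampus. The regions overlapped only in the range between 1197 and 1249, and the difference was -0.30 (1.23-fold lower, adjusted p = 3.48e-07), the lowest among proteasome genes. Psma1, an alpha subunit, ran at 1008, 1072 and 1112 in the amygdala and 1112, 1266 and 1343 in the hippocampus, so that the ranges met at their ends. It was 1.18-fold lower in the amygdala (log2 difference -0.24, adjusted p = 7.14e-07). A 2nd, dimmer probe set of Psma1 gave -0.17 (adjusted p = 0.129). Psma4, also of the alpha ring, differed by -0.16 (adjusted p = 0.0012). Psmb2, a beta subunit without a protease site, lay at 341, 595 and 642 in the amygdala and 532, 647 and 724 in the hippocampus, a difference of -0.18 (adjusted p = 0.0262). Its lowest value belongs to 1 low freezing amygdala array, number 3, and without that array the difference was -0.12 and still passed. Of the 7 alpha genes tested 2 were lower and 5 were not called, and of the 7 constitutive beta genes likewise 2 and 5.

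The other protease subunits did not follow Psmb5. Psmb6, with caspase-like activity, had 927, 1058 and 1184 in the amygdala and 835, 1003 and 1148 in the hippocampus, a difference of 0.055 (adjusted p = 0.328). Psmb7, with trypsin-like activity, had 1902, 2693 and 3067 in the amygdala and 1993, 2530 and 2806 in the hippocampus, a difference of 0.10 (adjusted p = 0.144). For both genes the regions overlapped over most of their ranges. Among the immunoproteasome counterparts, Psmb10 had 236, 271 and 355 in the amygdala and 265, 305 and 384 in the hippocampus, a difference of -0.13 that did not pass (adjusted p = 0.0621) but did under 3 of 11 other settings. Psmb8 and Psmb9 were dim: Psmb8 ran at 8.00, 36.6 and 68.3 in the amygdala and 21.9, 38.6 and 47.2 in the hippocampus, and Psmb9 at 17.3, 29.6 and 43.4 in the amygdala and 17.6, 27.6 and 46.5 in the hippocampus. Their differences of -0.025 (adjusted p = 0.882) and -0.0029 (adjusted p = 0.985) changed sign when single arrays were left out, and the intervals of -0.28 to 0.23 and -0.24 to 0.23 leave room for modest differences either way. The order Psmb9, Tap1, Psmb8, Tap2 forms a cluster on chromosome 17, in which the Tap genes code for the transporter that carries proteasome products to class I molecules. Tap1 and Tap2 differed by -0.012 and -0.018, neither past the threshold, while B2m, the class I light chain, was 0.26 higher in the amygdala (adjusted p = 0.00132) and Tapbp, which helps load peptides, 0.32 higher (adjusted p = 5.27e-06).

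In the regulatory particle the called genes went both ways. Among the ATPases, Psmc5 had 1397, 1681 and 2036 in the amygdala and 1199, 1374 and 1644 in the hippocampus. The upper part of the hippocampal range overlapped the lower part of the amygdalar one, and the gene was 1.25-fold higher in the amygdala (0.32, adjusted p = 8.18e-07). Psmc3 was lower (-0.13, adjusted p = 0.0022), with 1116, 1282 and 1380 in the amygdala and 1239, 1435 and 1603 in the hippocampus. The other 4 ATPases lay between 0.0083 and 0.074 and did not pass. ATPases of this ring sit in the complex side by side, and the 2 that passed differed from the hippocampus in opposite directions.

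The Psmd symbols cover scaffold and lid subunits as well as chaperones that assemble the ATPase ring. Of 14 genes, 4 were higher and 4 lower in the amygdala. Psmd9, such a chaperone, had the highest difference of all proteasome genes: 124, 145 and 178 in the amygdala and 85.8, 107 and 134 in the hippocampus, or 1.29-fold (0.37, adjusted p = 3.81e-05). The highest hippocampal arrays overlapped the lowest amygdala ones. Its other probe set, at a mean of 38.6, differed by -0.0076, and the mean of both probe sets gave 0.18 (adjusted p = 0.0338). Psmd10, known as gankyrin and another chaperone of that ring, had 150, 190 and 244 in the amygdala and 136, 161 and 189 in the hippocampus (0.23, adjusted p = 0.00161). A further chaperone, Psmd5, differed by -0.11 and did not pass (adjusted p = 0.0647). Psmd1, a large scaffold subunit, had 1370, 1644 and 1976 in the amygdala and 1118, 1403 and 1513 in the hippocampus, 1.21-fold higher (0.27, adjusted p = 6.35e-05). Psmd2, the other large scaffold, differed by -0.15 (adjusted p = 0.00102). So the large scaffold genes, like the ATPases, differed in opposite directions.

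Lid subunits were divided too. Psmd8 had 585, 737 and 824 in the amygdala and 704, 841 and 907 in the hippocampus (-0.19, adjusted p = 0.00167). Psmd6 had 1231, 1326 and 1521 in the amygdala and 1350, 1522 and 1689 in the hippocampus (-0.18, adjusted p = 0.000504); its other probe set gave -0.14 and passed as well (adjusted p = 0.0013). Both genes had overlapping ranges with the bulk of the amygdala arrays at the lower end. Psmd13 differed by -0.15 (adjusted p = 0.0255), while its other probe sets gave -0.075 and 0.096 (adjusted p = 0.281 and 0.336). Psmd12 was higher in the amygdala, with 678, 743 and 782 in the amygdala and 624, 678 and 717 in the hippocampus (0.13, adjusted p = 0.0044). Psmd14, the subunit that removes ubiquitin from substrates, missed the threshold at -0.088 (adjusted p = 0.0506).

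None of the alternative caps passed: Psme1 differed by -0.040, Psme3 by -0.031 and Psme4 by 0.088. The inhibitor gene Psmf1 differed by -0.13 (adjusted p = 0.13). Of the 4 core chaperones, Psmg2 was lower, with 143, 212 and 262 in the amygdala and 200, 249 and 280 in the hippocampus (-0.21, adjusted p = 0.0237). The ranges overlapped widely, and leaving out 1 of 2 amygdala arrays, high freezing number 8 or low freezing number 1, ended the call (adjusted p = 0.0516 for each), with differences of -0.17 and -0.16. Of the genes that are no subunits, Psmc3ip had 35.0, 51.8 and 66.6 in the amygdala and 22.3, 41.5 and 54.6 in the hippocampus (0.23, adjusted p = 0.0344), and its other probe set gave -0.011. The Psmc3ip call was lost under 4 of 10 other settings. Psme3ip1 differed by -0.0061.

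**Figure D2:**
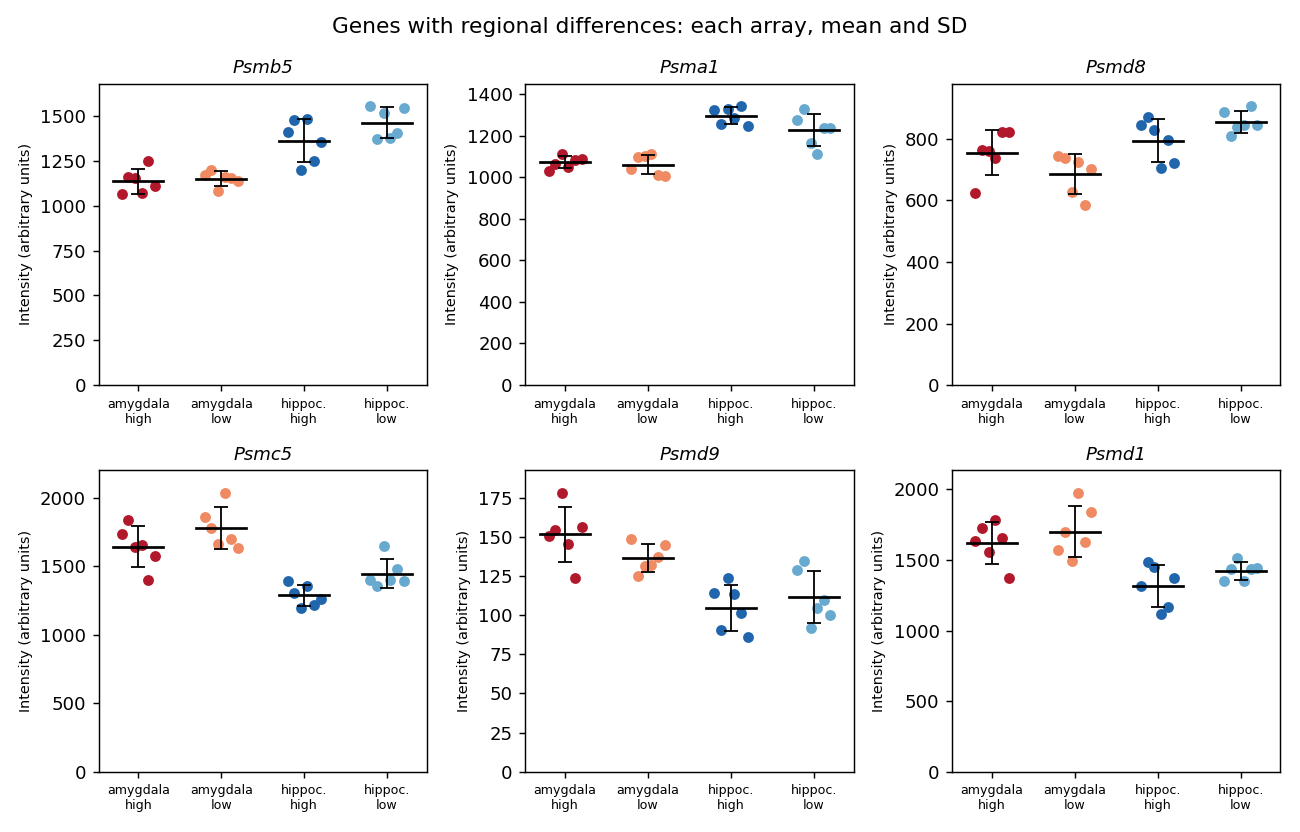
Intensity of 6 genes in every array, with the mean and SD of each group as bars (n = 6), amygdala left of hippocampus. Psmb5, Psma1 and Psmd8 sit lower in the amygdala, at medians of 1156, 1072 and 737, and Psmc5, Psmd9 and Psmd1 higher, at 1681, 145 and 1644; within each region the high and low freezing groups overlap.

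**Figure D3:**
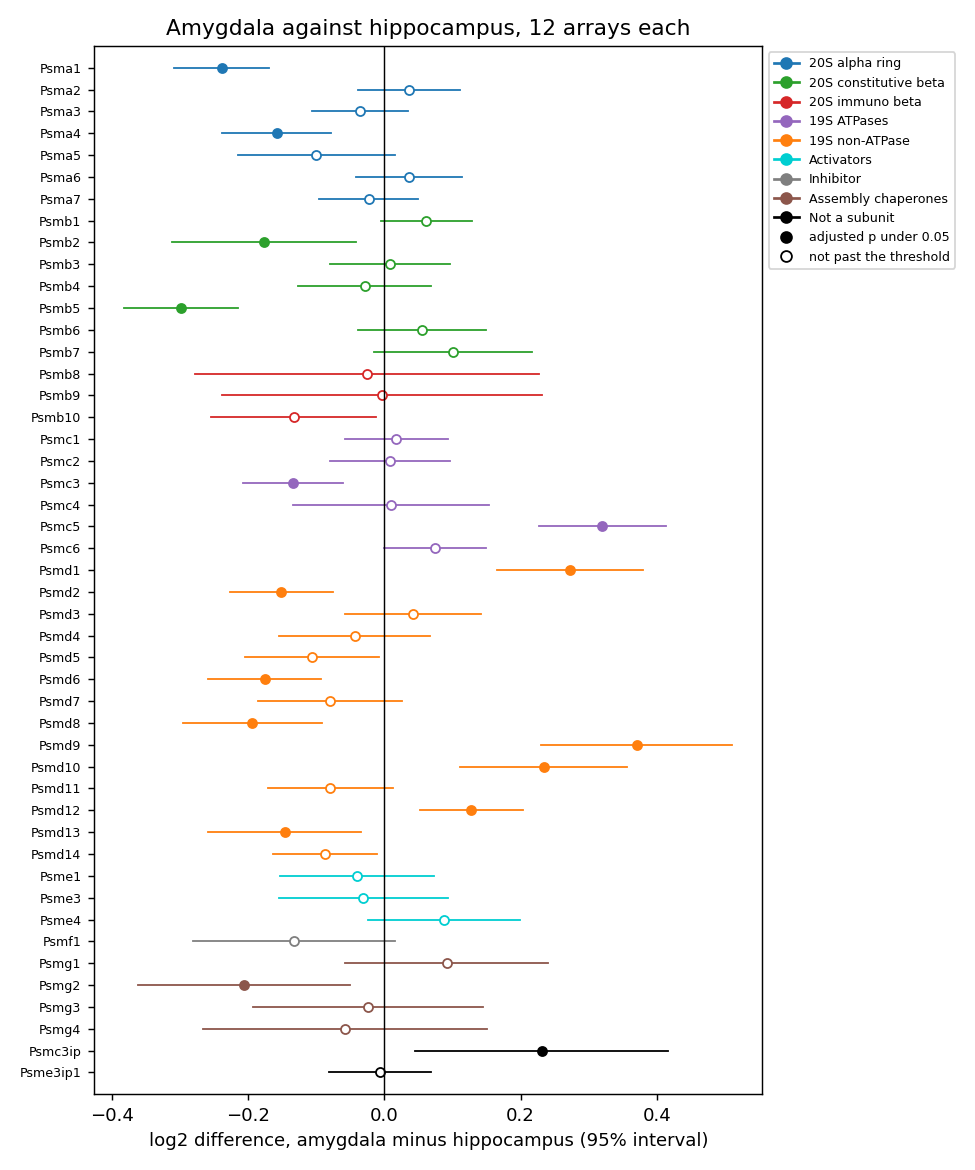
Log2 difference of amygdala minus hippocampus for 47 proteasome genes with 95% intervals, coloured by role. Filled points are the 16 genes past the threshold, 10 left of 0 and 6 right of it, between -0.30 for Psmb5 and 0.37 for Psmd9.

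Proteasome genes have 36 further probe sets above the dim filter, for 22 genes. In the regional comparison 20 of the 36 had the sign of the gene's brightest probe set. For the called genes with another probe set, 6 genes with 7 further probe sets, 4 had the same sign, 1 of them (Psmd6) passed as well, and none passed in the opposite direction. Of the genes not called at their brightest probe set, 5 passed at 1 dimmer probe set. Psmd11 (-0.18, adjusted p = 0.000301), Psma5 (-0.15, adjusted p = 0.0369) and Psmd7 (-0.34, adjusted p = 0.0383) did so with the sign of the brightest. Psma3 (0.24, adjusted p = 0.04) and Psme4 (-0.21, adjusted p = 0.0467) did so with the opposite sign, against -0.036 and 0.088 at the brightest. These 5 genes were named after their values were seen.

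The 2 lowest and the 2 highest regional differences among the called genes are those of Psmb5, Psma1, Psmc5 and Psmd9, and their promoters are shown to set letters beside these opposite differences. The sequences are the 250 bases before the start of each gene in RefSeq, build GRCm38.p6, on the gene's strand. Capitals mark TGACNNNGC on either strand, the core of the antioxidant response element, which the factors Nfe2l1 and Nfe2l2 bind and through which Nfe2l1 is known to raise proteasome genes when the proteasome is inhibited. Psmb5 lies at chr14:54617996-54618245 on the minus strand, Psma1 at chr7:114276117-114276366 on the minus strand, Psmd9 at chr5:123227940-123228189 on the plus strand and Psmc5 at chr11:106255935-106256184 on the plus strand.
Psmb5: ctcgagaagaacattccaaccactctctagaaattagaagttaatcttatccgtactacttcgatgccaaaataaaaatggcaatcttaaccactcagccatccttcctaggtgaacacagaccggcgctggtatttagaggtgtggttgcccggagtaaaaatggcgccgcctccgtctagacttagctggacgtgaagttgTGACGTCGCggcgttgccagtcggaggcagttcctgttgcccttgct
Psma1: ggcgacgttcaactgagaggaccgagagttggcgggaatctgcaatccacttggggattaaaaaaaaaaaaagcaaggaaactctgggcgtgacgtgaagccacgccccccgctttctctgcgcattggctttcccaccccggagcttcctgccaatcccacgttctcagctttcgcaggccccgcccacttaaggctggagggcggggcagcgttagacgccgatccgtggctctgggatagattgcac
Psmd9: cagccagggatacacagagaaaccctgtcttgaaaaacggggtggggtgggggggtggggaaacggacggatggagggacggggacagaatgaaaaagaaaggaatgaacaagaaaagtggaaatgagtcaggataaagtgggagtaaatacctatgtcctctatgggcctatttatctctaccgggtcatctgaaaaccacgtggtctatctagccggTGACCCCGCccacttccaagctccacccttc
Psmc5: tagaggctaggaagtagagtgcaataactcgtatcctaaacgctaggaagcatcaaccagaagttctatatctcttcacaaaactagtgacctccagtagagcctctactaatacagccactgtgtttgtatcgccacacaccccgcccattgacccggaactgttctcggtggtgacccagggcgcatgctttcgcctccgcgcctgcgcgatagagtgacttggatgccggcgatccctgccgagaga
The motif stood 47 bases before the start in Psmb5 and 31 bases before it in Psmd9, the genes with the lowest and the highest difference, and these letters were not in the windows of Psma1 and Psmc5. Of the 41 proteasome genes with a promoter in the table, 5 held the motif (12.2%), against 10.1% of 27025 genes; the other 3 were Psmb6, Psmc6 and Psmd12. By regional call it was in 1 of 7 genes lower in the amygdala, 2 of 6 higher and 2 of 27 not called. CCAAT, searched on both strands, was in 15 of 41 promoters (36.6%) and in 34.5% of all. No promoter of a proteasome gene held both motifs, and a match is only a description of the sequence.

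Both factors were measured. Nfe2l2 was 0.77 higher in the amygdala (adjusted p = 4.06e-10) and Nfe2l1 0.17 higher (adjusted p = 0.0145), while Ngly1, the enzyme that removes sugars from Nfe2l1, differed by 0.11 (adjusted p = 0.125). A list of 36 genes outside the symbol rule covers further subunits and partners, transcription factors, ubiquitin enzymes and antigen processing; 25 were tested, of which 10 were higher in the amygdala, 4 were lower and 11 did not pass. The 14 of 25 that passed stand beside the 56.3% of all genes, so the count is near the background. Sem1, a small lid subunit, was 0.42 higher (adjusted p = 2.1e-09). The deubiquitinases that dock on the regulatory particle went apart, with Usp14 at -0.37 (adjusted p = 4.82e-08) and Uchl5 at 0.21 (adjusted p = 0.00218). The shuttle factors that bring ubiquitinated proteins to the proteasome did so too, with Ubqln1 at 0.19, Ubqln2 at -0.25 and Ubqln4 at -0.35 (adjusted p = 1.16e-05, 1.11e-06 and 2.58e-05). Vcp, the ATPase that extracts ubiquitinated proteins, and its cofactor Ufd1 were higher, by 0.14 (adjusted p = 0.00491) and 0.28 (adjusted p = 1.47e-06). Pomp, which helps the core mature, differed by 0.026 (adjusted p = 0.587).

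For freezing, no proteasome gene passed the threshold in either region by limma. In the hippocampus 0 of 47 passed, beside 0.0321% of all genes, and 8 had an unadjusted p under 0.05 (17.0%, against 12.1% of all genes), 7 of them lower in the high freezing group (5.70% of all genes were). In the amygdala 0 of 47 passed, beside 0.0561% of all genes, and 7 had an unadjusted p under 0.05 (14.9%, against 10.0%), 4 of them lower (4.88% of all genes). The 95% intervals of all 47 genes in the hippocampus, and of 46 in the amygdala, stayed within 1.5-fold either way, Psmb8 being the exception. In the hippocampus, 35 of 47 differences were below 0, with a median of -0.074, against 49.6% of all genes below 0 and a median of 0.00092. In the same comparison 11 of 12 microglia markers were below 0 (median -0.094, summed 4108 to 4460 in the high and 4332 to 4804 in the low freezing group), as were 4 of 4 hippocampus markers (median -0.15, summed 1089 to 1427 and 1234 to 1689 in the same groups). All 4 choroid plexus markers were above 0 (median 0.22, summed 2134 to 13319 in the high and 1847 to 11801 in the low freezing group). Oligodendrocyte markers had 5 of 6 below 0 (median -0.077) and astrocyte markers 4 of 7 (median -0.090). General neuron markers had 4 of 8 below 0 (median 0.00052) and endothelium markers 3 of 6 (median 0.0074). Excitatory neuron markers had 1 of 4 below 0 (median 0.092) and inhibitory neuron markers 1 of 3 (median 0.026). No marker of these lists passed the threshold, and their part in the hippocampal values was not tested. In the amygdala, 27 of 47 were below 0, with a median of -0.021, against 50.7% and a median of -0.0019. No proteasome gene had amygdala groups that did not overlap, against 0.545% of all genes. Genes of a complex measured on the same arrays do not vary independently, and 1 array can move many of them.

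**Figure D4:**
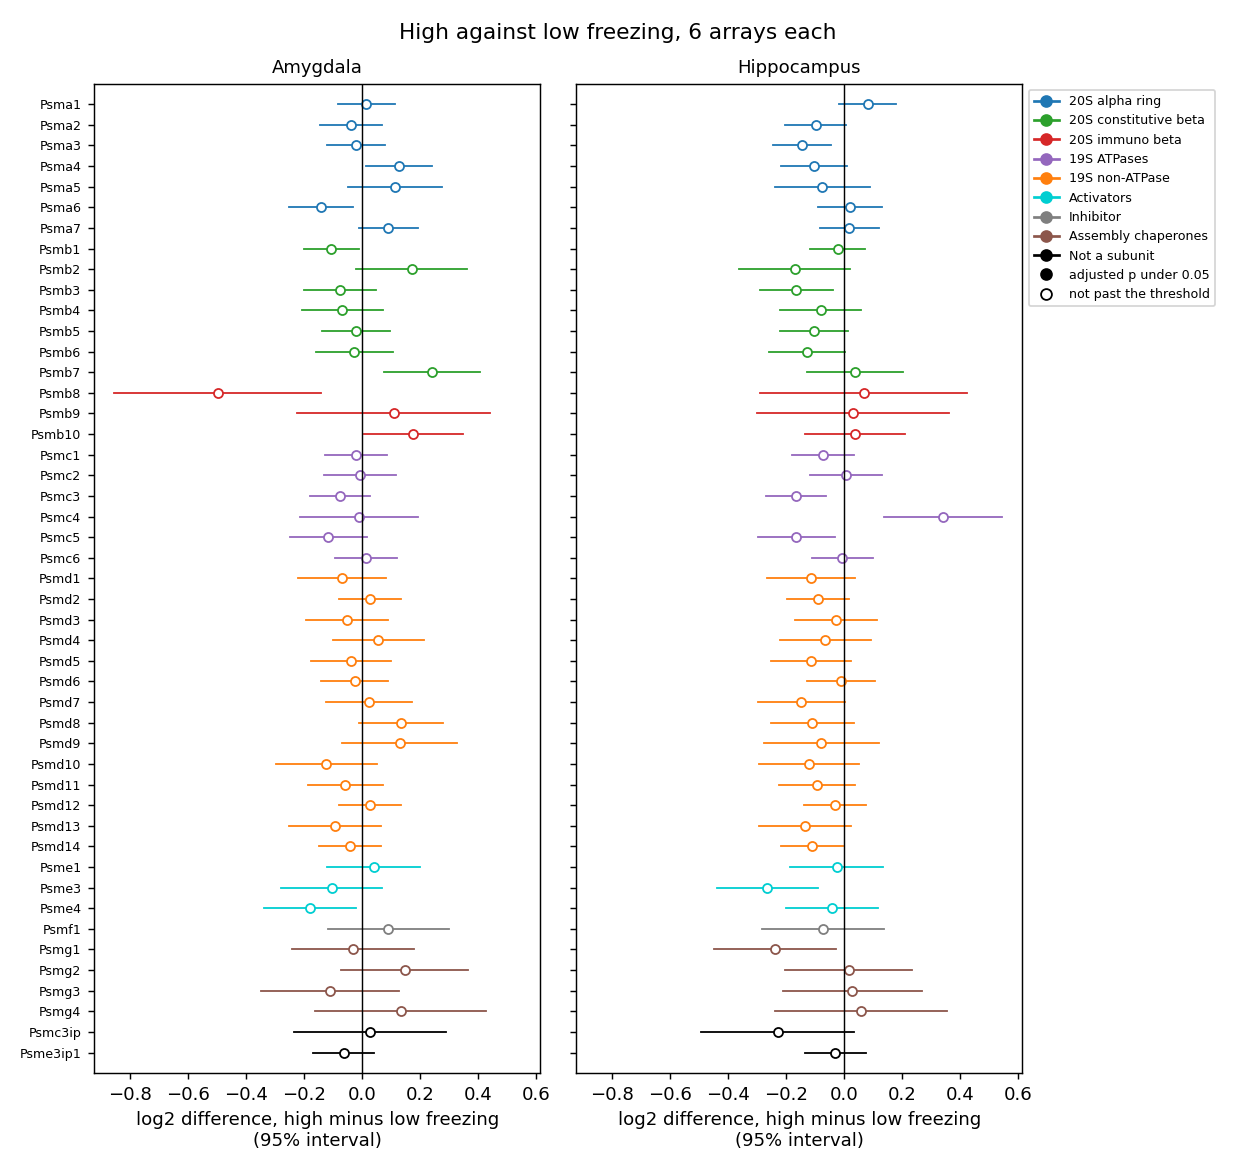
Log2 difference of high minus low freezing for 47 proteasome genes in the amygdala (left) and the hippocampus (right), with 95% intervals, coloured by role. All points are open, since none passed the threshold. In the hippocampus the 14 Psmd genes, each at its brightest probe set, all lie left of 0, between -0.15 and -0.0096.

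By role, the constitutive beta ring had 6 of 7 hippocampal differences below 0, with a median of -0.10. The Psmd genes had 14 of 14 at their brightest probe sets, with the same median. Their dimmer probe sets were split: those of Psmd9 (0.13) and Psmd13 (0.022 and 0.0057) and a probe set of Psmd11 (0.0084) were above 0. Those of Psmd4, Psmd6 and Psmd7 and the rest of Psmd11 were below 0. The alpha ring had 4 of 7 below 0 (median -0.074), the ATPases 4 of 6 (-0.038), the caps 3 of 3 (-0.041), the inhibitor Psmf1 -0.073, the 2 genes that are no subunits both below 0 (-0.13) and the core chaperones 1 of 4 (0.023), while the 3 immunoproteasome genes lay above 0 (0.037). In the amygdala the Psmd genes had 8 of 14 below 0 with a median of -0.031. The lowest Psmd difference in the hippocampus was that of Psmd7, the lid partner of the deubiquitinase subunit Psmd14, at -0.15 (adjusted p = 0.432), and the one nearest 0 that of Psmd6 at -0.0096. Array by array, the median deviation of the 47 genes from their mean in the region was below 0 in 5 of 6 high freezing hippocampus arrays, from -0.082 to 0.030, and above 0 in 4 of 6 low freezing ones, from -0.014 to 0.063. The groups overlapped. Array 11 of the high freezing group was the lowest, with 37 of 47 genes below their regional mean. It also had the highest median intensity in the hippocampus, 41.5. Low freezing array 5, with the highest deviation (0.063), had the lowest median intensity, 36.7. High freezing array 7 (0.030) had 37.5, and low freezing arrays 2 and 4 (-0.014 each) had 38.3 and 38.7. The part of array intensity in these deviations was not tested. In the amygdala the array medians ran from -0.022 to 0.017 in the high and from -0.010 to 0.023 in the low freezing group.

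Of the 5 genes with the smallest p in the hippocampus, Psmc4, an ATPase, was the only one with a higher value in the high freezing group. It had 1018, 1201 and 1556 in the high and 827, 978 and 1098 in the low freezing group, a difference of 0.34 (adjusted p = 0.157), with some overlap between the groups. Its other probe set gave -0.16 (adjusted p = 0.26), so the probe sets of Psmc4 disagree in sign. Psmc3, another ATPase, had 1239, 1331 and 1423 in the high and 1447, 1489 and 1603 in the low freezing group (-0.16, adjusted p = 0.174). Every high freezing array lay below every low freezing one. Psmc3 was the 1 proteasome gene of 47 for which this held, 2.13%, against 0.361% of all genes. No other proteasome gene had hippocampal groups that did not overlap in either direction, against 0.722% of all genes. Psme3, the nuclear activator, had 216, 238 and 263 in the high and 249, 275 and 368 in the low freezing group (-0.26, adjusted p = 0.196), with overlap. Its other probe set gave 0.050.

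Psma3, an alpha subunit, had 2210, 2238 and 2490 in the high freezing hippocampus and 2337, 2535 and 2821 in the low (-0.14, adjusted p = 0.219). Its dim other probe set gave 0.38 (adjusted p = 0.248), and the mean of its probe sets 0.12. Psmb3, a beta subunit without a protease site, had 1005, 1191 and 1287 in the high and 1225, 1316 and 1479 in the low freezing group (-0.16, adjusted p = 0.265). Here the other probe set agreed in sign at -0.20 (adjusted p = 0.174). Groups of both genes overlapped. Psmc6 shows the spread between probe sets: its brightest gave -0.0053 and 2 dimmer ones 0.45 and 0.34 (adjusted p = 0.137 each); Psmc6 was singled out after its values were seen. Over all 36 further probe sets, 19 had the sign of the brightest in the hippocampus and 20 in the amygdala.

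In the amygdala the smallest p belonged to Psmb7, the trypsin-like subunit. It had 2690, 2857 and 3067 in the high and 1902, 2543 and 2697 in the low freezing group, overlapping only between 2690 and 2697, a difference of 0.24 (adjusted p = 0.246). Psmb8, the immunoproteasome counterpart of Psmb5, had 8.00, 30.9 and 41.7 in the high and 28.7, 42.3 and 68.3 in the low freezing group. The difference of -0.50 (interval -0.85 to -0.14, adjusted p = 0.277) was the largest of any proteasome gene for freezing; without high freezing array 11, which holds the value of 8.00, it was -0.33. For this dim gene the size moved with the offset, to -0.76 at an offset of 1 and -0.25 at an offset of 64. Psmb9 and Psmb10 differed by 0.11 and 0.18 in the other direction, neither past the threshold (adjusted p = 0.87 and 0.444). Microglia markers had a summed intensity of 5250 to 5830 in the high and 5336 to 7362 in the low freezing amygdala. Of the 12, 9 were below 0 (median -0.17). Below 0 were also 6 of 7 astrocyte (median -0.16), 6 of 6 oligodendrocyte (-0.066) and 5 of 6 endothelium markers (-0.045). Central amygdala and striatum markers had 4 of 4 below 0 (-0.28) and inhibitory neuron markers 3 of 3 (-0.036). General neuron markers had 2 of 8 below 0 (0.035) and excitatory ones 1 of 4 (0.26). None of these passed the threshold. B2m differed by -0.33 (adjusted p = 0.151), the lowest of 5 antigen processing and interferon genes tested, of which 3 lay above 0 (median 0.11). The part of these genes in the Psmb8 values was not tested.

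Psma6, of the alpha ring, had 1801, 1909 and 1956 in the high freezing amygdala and 1863, 2095 and 2323 in the low (-0.14, adjusted p = 0.323). The other probe sets of Psma6 gave 0.022 and -0.086. Psma4 had 1060, 1092 and 1163 in the high and 917, 1033 and 1080 in the low freezing group (0.13, adjusted p = 0.387). Psme4, a nuclear cap of the core, had 304, 359 and 374 in the high and 371, 392 and 450 in the low freezing group (-0.18, adjusted p = 0.393). Its other probe sets gave 0.027, -0.34, -0.10, 0.11 and -0.19, none past the threshold. The Psma6 groups shared a good part of their ranges, whereas those of Psma4 and Psme4 overlapped only at the ends.

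**Figure D5:**
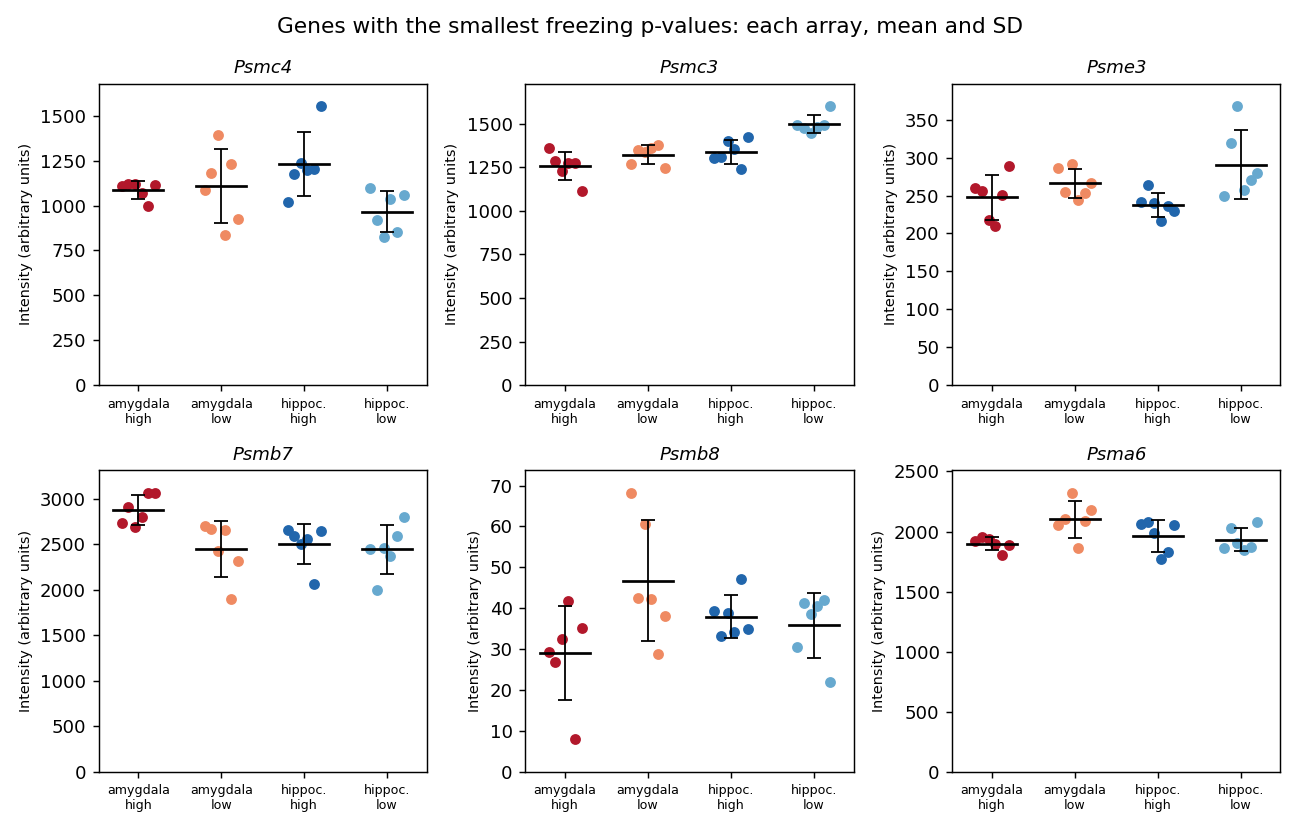
Intensity of 6 genes in every array, with the mean and SD of each group as bars (n = 6), high left of low freezing within each region. Psmc4 is higher and Psmc3 and Psme3 lower in the high freezing hippocampus, at medians of 1201, 1331 and 238, and Psmb7 is higher and Psmb8 and Psma6 lower in the high freezing amygdala, at 2857, 30.9 and 1909; none passed the threshold.

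The freezing differences of the regions were set against each other by the interaction, the amygdalar difference minus the hippocampal one. By limma 0 of 47 proteasome genes passed, as did 0% of all genes, and 6 had an unadjusted p under 0.05 (12.8%, against 5.59% of all genes), 3 in each direction. The interaction was below 0 for 12 of 47 genes, against 51.0% of all genes, with a median of 0.073 against -0.0034; it uses the same arrays as the freezing comparisons and adds no separate evidence to them. The smallest p was that of Psma4, at 0.23 (adjusted p = 0.772), which differed by 0.13 in the amygdala and by -0.10 in the hippocampus. Psmb2 gave 0.34 (adjusted p = 0.797), and 0.22 without low freezing amygdala array 3. Psmc4 gave -0.35 (adjusted p = 0.813), while its other probe set gave 0.14 and the mean of both -0.11. Psmd8 gave 0.24 (adjusted p = 0.815), and Psmb8 -0.56 (adjusted p = 0.824), which ran from -0.86 with an offset of 1 to -0.28 with an offset of 64. So no single proteasome gene was shown to differ in its freezing difference between the regions.

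The genes that work with the proteasome did not pass for freezing either. None of 25 passed in either region by limma, and 2 in the hippocampus and 4 in the amygdala had an unadjusted p under 0.05, beside 12.1% of all genes in the hippocampus and 10.0% in the amygdala. The median was -0.013 in the hippocampus and 0.0075 in the amygdala. Vcp differed by -0.15 in the hippocampus (adjusted p = 0.283) and by 0.028 in the amygdala. Akirin2, which brings proteasomes into the nucleus, differed by 0.14 in the hippocampus and 0.20 in the amygdala (adjusted p = 0.409 and 0.27). Nfe2l1 differed by -0.12 in the hippocampus (adjusted p = 0.608) and by -0.015 in the amygdala.

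Among themselves the proteasome genes varied less between arrays of a group than most genes. The residual SD on the log2 scale had a median of 0.119 over the 47 genes and of 0.178 over all genes tested. It was smallest for Psme3ip1 and Psmb1, at 0.0568 and 0.0575, and for Psma1, at 0.0626. It was largest for Psmb8, Psmb9 and Psmg4, a core chaperone, at 0.311, 0.276 and 0.271; Psmb8 and Psmb9 are dim, and brightness was not matched in this comparison. By position the 49 genes are spread over 16 chromosomes, with 9 on chromosome 11 and 6 on chromosome 2, and Psmb5 stands next to Psmb11 on chromosome 14.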

How the data were processed

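Total RNA was measured on 24 arrays, and the deposited table gives 45101 probe sets as intensity on a linear scale. The sources used here do not give the software or scaling the authors used. Every array has a mean of 149 without its top and bottom 2%, which scaling to a common target would give. Values were used as log2(intensity + 16) of the deposited intensity. The 64 control probe sets and the dimmest 40% by mean log2 value were left out, leaving 27022 (lowest mean kept 23.3). A model with 1 mean per group was fitted with limma 3.58.1 in R 4.3.3 (intensity trend, 20 residual degrees of freedom, two-sided tests, Benjamini-Hochberg adjustment, threshold 0.05) and tested on simulated data. Symbols came from the platform annotation: 34945 probe sets carried 1 symbol, 932 several and 9160 none. The genes named were those past the threshold for freezing or interaction, otherwise the 5 smallest p, the 6 highest and 6 lowest regional calls, the catalytic pairs and Psmc3ip. Members and lists were chosen with earlier results of these data known. Array numbers are shared between the regions, but the labels do not say that equal numbers are the same mouse, so no pairing was used. Arrays with the same number did not deviate together (0 of 12 correlations over 0.1, from -0.0791 to 0.0865), which cannot decide this. Array number, 6 per group, limits the precision. Alternatives changed the offset, normalization, dim filter, variance prior, array weights, probe set rule, fit per region, replicate block and single arrays.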

Additional observations from a re-analysis of the deposited data

Results flagged for a closer look

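In 14 of 196 sets of 6 arrays, 1 set for each of 49 genes and 4 groups, 1 array stood far from the other 5 by Dixon's criterion, which chance alone meets in about 1 of 20 sets. In the high freezing amygdala these were Psma8 in array 11 (34.8 intensity units, the others 1.37 to 9.60), Psmb11 in array 7 (18.1, the others 1.48 to 3.68), Psmd10 in array 9 (150.1, the others 185 to 204), Psmg3 in array 12 (333, the others 171 to 218) and Psmg4 in array 9 (230.3, the others 115 to 154). In the low freezing amygdala they were Psmb2 in array 3 (341, the others 547 to 610.3) and Psmg2 in array 1 (143, the others 197 to 228). In the high freezing hippocampus they were Psmb3 and Psmb7 in array 11 (1005 and 2067, the others 1187 to 1287 and 2501 to 2657), Psmd14 in array 10 (1835, the others 1603 to 1690) and Psmd3 in array 8 (544, the others 449 to 479). In the low freezing hippocampus they were Psmc3 in array 6 (1603, the others 1447 to 1495), Psme1 in array 2 (422, the others 464 to 489) and Psmg1 in array 1 (384, the others 247 to 279). The 14 values fall on 12 arrays, at most 2 on each.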

How the results depend on the processing

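Median differences of the proteasome genes kept their sign under the 11 or 12 alternatives and the 24 fits without 1 array, but not always their size. The split of the regional calls into lower and higher moved with array scaling, as given above. The regional median was -0.025, -0.067 after centring arrays on their medians (a step that shifts all genes of an array alike) and -0.015 after quantile normalization. The amygdala freezing median of -0.021 was -0.044 after centring and -0.0033 after quantile normalization. Regional calls numbered 15 to 21 under alternatives and 14 to 19 without 1 array, against 16; calls for freezing and interaction stayed at 0. Without 1 array, the medians ran from -0.094 to -0.065 in the hippocampus, from -0.033 to -0.0022 in the amygdala (without low freezing array 2 and 5), from -0.032 to -0.015 between regions and from 0.055 to 0.088 for the interaction. The fit with the replicate block gave 17 regional calls against 16 and changed no call of a named gene. The shared numbers had a correlation of 0.0256, and 4 of 12 arrays correlated best with their own number. These values cannot tell whether equal numbers are the same mouse, since 2 regions of a mouse need not deviate together. Signs turned for Psma3 in the hippocampus with the mean of its probe sets (0.12) and for Psmb8 between regions with an offset of 64 (0.00019); without 1 array Psmb8 ran from -0.071 to 0.060 and Psmb9 from -0.048 to 0.041 between regions. Between regions, Psmb10 passed with array weights, centring and probe set means, and Psmb7 with quantile normalization; Psmb2 was lost with quantile normalization, Psmd12 with centring, and Psmc3ip with centring, quantile normalization, probe set means and no dim filter. Without 1 array, Psmc3ip (0.19 to 0.22) was lost for amygdala high freezing 7, 8 or 11, amygdala low freezing 2 or 4, hippocampus high freezing 10 and hippocampus low freezing 4 or 6; Psmb10 (-0.16 to -0.15) passed for amygdala high freezing 7 or 12, amygdala low freezing 2 and hippocampus low freezing 2, 3 or 5, and Psmb7 (0.14) for amygdala low freezing 5. With probe set means, freezing differences shrank to 0.090 for Psmc4 and -0.11 for Psme3 in the hippocampus, and to -0.068 for Psma6 and -0.11 for Psme4 in the amygdala. The causes were not tested.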
